A study of Mus musculus with 2 samples.

Results

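Ntrk2-positive capillary endothelial cells of the mouse lung were chosen from single-cell RNA libraries by their transcripts. A barcode was retained with 200 to 6000 detected genes and with at most 10% of its UMIs (molecular tags, 1 per captured transcript) from mitochondrial genes. It was called endothelial with a UMI of at least 4 of 10 endothelial genes (Cdh5, Pecam1, Flt1, Cldn5, Kdr, Tie1, Egfl7, Ramp2, Tmem100 and Calcrl). It was left out as an aerocyte with a UMI of 2 or more of 7 aerocyte genes (Car4, Ednrb, Fibin, Apln, Tbx2, Chst1 and Emp2), and it was called Ntrk2-positive with at least 1 Ntrk2 UMI. This gave 148 Ntrk2-positive cells among 986 barcodes, 135 of 613 in the Hypoxia library and 13 of 373 in the Normoxia library. The same gate without an Ntrk2 UMI gave 83 Ntrk2-negative cells in Hypoxia and 84 in Normoxia. The levels of these 18 genes chose the cells and are given below as a description.

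The libraries came from NG2tdT mice, in which tamoxifen (2 mg per 30 g of body weight, then 7 days of rest) lets a Cre recombinase under the promoter of NG2 (gene Cspg4), a proteoglycan of pericytes, switch on the red fluorescent protein tdTomato. Both groups carried the reporter, and the labels describe both as tdT-sorted lung cells. Hypoxia lungs came from mice kept at an inspired oxygen fraction of 10% for 21 days and Normoxia lungs from mice labelled as not treated. Each group had 1 library made with the droplet-based Chromium 3' kit version 3.1. The labels speak of 3 replicates, although 1 matrix per group was given, and name no sex or age. The study's text instead describes whole-lung cells of several wild-type animals after hypoxia, depleted of CD45+ and CD326+ cells with no reporter sort. It combined them with a published set of hypoxic and normoxic lung cells and describes no normoxic animals of its own for this assay. Its methods name male adult mice for hypoxia exposure in general. Which of these descriptions holds for these libraries was not settled, and a library may pool animals. No spread between replicates could be measured and no test was made. Every difference is one between libraries or between sets of cells of 1 library, exposure and library cannot be told apart, and every 95% interval covers counting error only.

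Ntrk2 encodes TrkB, a receptor tyrosine kinase for brain-derived neurotrophic factor and neurotrophin-4 that signals through adaptor proteins to the ERK, PI3-kinase and phospholipase C-gamma pathways and is best known from neurons. The alveolar capillary bed is built from general capillary cells, which include its stem-like cells, and from aerocytes, large cells specialised for gas exchange and marked by Car4, Ednrb and Apln. Sema3c encodes a secreted guidance protein and Sox17 a transcription factor of arterial and developing endothelium.

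The endothelial genes of the rule chose the cells, so their levels describe the Hypoxia members and do not test their identity. Cdh5, the cadherin of endothelial junctions, had a UMI in 128 of 135 Hypoxia members, Pecam1 in 128 and Kdr, the main VEGF receptor, in 55. The median member had a UMI of 8 of the 10 endothelial genes, as did the median Ntrk2-negative cell. Beyond the genes of the rule, 132 of the 135 had a UMI of at least 3 of 11 general capillary genes. Sema3c had a UMI in 128 of them (1892 CPM, UMIs of the gene per 1000000 UMIs of all genes) and Sox17 in 85 (452 CPM).

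Markers of most non-endothelial lung cell classes and of lymphatic endothelium were low in the Hypoxia members. Cspg4, the gene whose promoter drives the reporter, had 0 UMIs in all 4 sets, which at this depth allows a Cspg4 UMI in up to 2.22% of the 135 cells and does not limit the share that expresses it, and the reporter transcript was not analysed here. Pdgfrb, the other defining pericyte gene, had 0 UMIs in the Hypoxia members and 1 UMI in the Normoxia members. At least 2 markers were detected in 1 Hypoxia member for fibroblasts, in 1 for pericytes and smooth muscle, in 0 for T and NK cells, in 1 for B cells, in 4 for macrophages and monocytes, in 4 for alveolar type II cells and in 1 for lymphatic endothelium. The summed level of the 8 lymphatic markers was 109 CPM in the Hypoxia members and 6471 CPM in the Hypoxia Ntrk2-negative cells. The summed level of the 10 fibroblast markers was 43.9 CPM in the Hypoxia members and 19.3 CPM in the Hypoxia Ntrk2-negative cells. Haemoglobin and other red blood cell markers reached at least 2 in 12 Hypoxia members. At least 1 of 4 airway club markers was detected in 60 Hypoxia members (199 CPM summed) and 24 Hypoxia Ntrk2-negative cells, and at least 2 in 2 and 1. The club gene Scgb1a1 had a UMI in 56 Hypoxia members, with at most 6 in 1 cell. At least 2 markers of some non-endothelial class were detected in 22 Hypoxia members and 16 Hypoxia Ntrk2-negative cells. Markers of other blood vessel classes were frequent. At least 2 of 13 arterial markers, Sox17 among them, were detected in 99 Hypoxia members (73.3%) and 39 Hypoxia Ntrk2-negative cells (47.0%). The summed arterial level was 1706 CPM in these members and 3153 CPM in these negative cells. At least 2 aerocyte markers beyond the rule were detected in 72 and 33 cells, and at least 2 venous markers in 24 and 17.

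The 13 Normoxia members were less uniform. A pair of them carried 8 and 6 of the 10 fibroblast markers, with 412 and 110 fibroblast UMIs, only 4 of the 10 endothelial genes each and 0 and 1 Sema3c UMIs. These were also the deepest Normoxia members, with 6728 and 5029 UMIs, and the only ones with 3 Ntrk2 UMIs, and each also had 2 of the 8 lymphatic markers. Dcn, a fibroblast proteoglycan, had 243 UMIs in them, 168 of these in 1 cell. The other 11 Normoxia members had 7 to 9 endothelial genes, 4 to 8 general capillary genes and 3 to 10 Sema3c UMIs. The main values between the members of the libraries are therefore also given without the cells that had at least 2 fibroblast markers (134 Hypoxia and 11 Normoxia cells), a comparison chosen after the data were seen.

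Ntrk2 itself was detected in a larger share of the gated endothelial cells of the Hypoxia library. In Hypoxia 135 of 218 gated cells had an Ntrk2 UMI (61.9%, exact Clopper-Pearson interval 55.1 to 68.4%). In Normoxia the count was 13 of 97 cells (13.4%, 7.33 to 21.8%). The intervals did not overlap. Because Ntrk2 chose the members, this is a description of the libraries and no test was possible with 1 library per group. Cells with at least 2 fibroblast markers changed little in it: without them the shares were 61.8% and 11.8%.

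Depth differed little between the gated cells, with a median of 2396.5 UMIs in Hypoxia and 2296 in Normoxia. After every cell was thinned to 1000 UMIs, 90 of 199 Hypoxia cells (45.2%, 38.2 to 52.4%) and 6 of 88 Normoxia cells (6.82%, 2.54 to 14.3%) still had an Ntrk2 UMI, with 19 and 9 shallower cells left out. The share grew with depth within Hypoxia, from 51.0% of 51 cells under 1500 UMIs to 57.7% of 104 cells with 1500 to 2999 and 77.8% of 63 cells with 3000 or more. In Normoxia the corresponding shares were 0 of 22 cells, which allows up to 13.6%, 16.3% of 49 and 19.2% of 26. At each depth the Hypoxia share was above the Normoxia share.

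T, NK and B cells, which should lack Ntrk2, gave the background level. They had an Ntrk2 UMI in 3 of 138 Hypoxia cells (2.17%, 0.451 to 6.22%; median 2352.5 UMIs) and in 0 of 61 Normoxia cells, which allows up to 4.92% (median 3108 UMIs). Either preparation described for these libraries, a reporter sort or a depletion of CD45+ cells, would remove such cells, yet both libraries held them. The Hypoxia endothelial share lay far above this level. The thinned Normoxia endothelial interval overlapped the interval of the Normoxia T, NK and B cells, 0 to 5.96% after thinning.

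**Figure D1:**
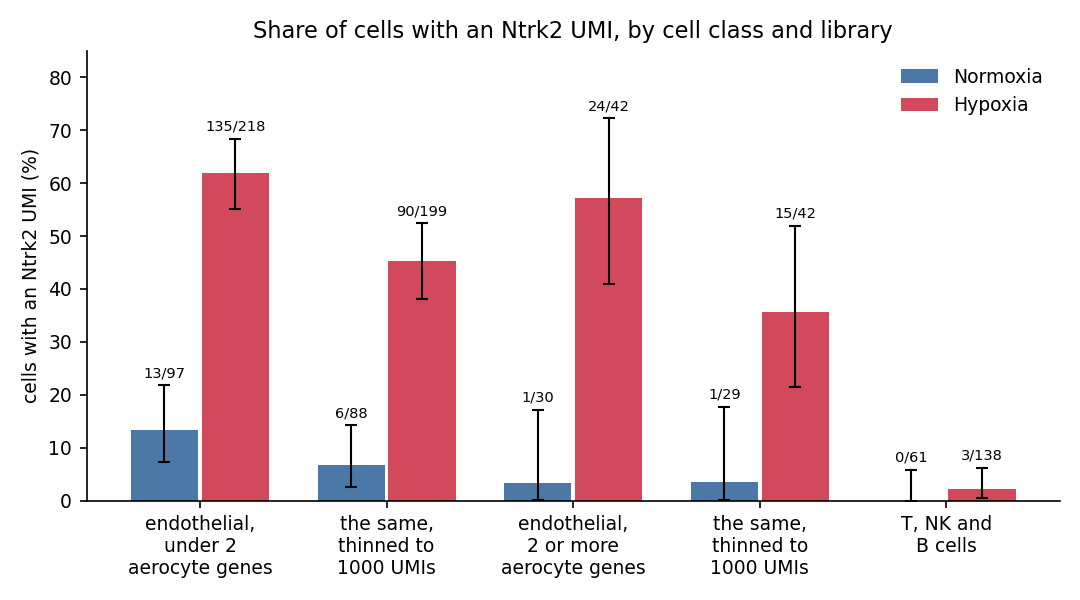
Share of cells with an Ntrk2 UMI in percent (bars) with exact 95% intervals (lines) in 3 cell classes of the Normoxia and Hypoxia libraries, the endothelial classes also after thinning to 1000 UMIs, with the counts above each bar. The gated endothelial cells reach 61.9% in Hypoxia and 13.4% in Normoxia, while T, NK and B cells stay at 2.17% and 0%.

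Ntrk2 UMIs were also found outside the endothelial gate. Of the cells with fewer than 4 endothelial genes, 15 of 296 in Hypoxia (5.07%, 2.86 to 8.22%) and 12 of 203 in Normoxia (5.91%, 3.09 to 10.1%) had one. No Hypoxia member had exactly 4 endothelial genes and 102 had 8 or more, whereas 2 Normoxia members had exactly 4 and 8 had 8 or more. With exactly 3 endothelial genes, 3 cells of each library had an Ntrk2 UMI. Among the Hypoxia members 87 had 0 and 48 had 1 aerocyte gene, and 8 further Ntrk2-positive cells had exactly 2. Below the limit of 1 Ntrk2 UMI stood the 83 Hypoxia and 84 Normoxia cells with 0.

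The number of Ntrk2 UMIs per member ranged from 1 to 10 in Hypoxia with a median of 2, and from 1 to 3 in Normoxia with a median of 1. In Hypoxia 40 members had 1 UMI, 34 had 2 and 61 had 3 or more. In Normoxia 9 had 1, 2 had 2 and 2 had 3. Summed over cells, Ntrk2 made up 393 of 386897 UMIs in the Hypoxia members (1016 CPM) and 19 of 39320 in the Normoxia members (483 CPM). The level per positive cell thus stood higher in Hypoxia as well as the share, though both levels are raised by the requirement of at least 1 UMI. Hypoxia members had a median of 2656 UMIs (526 to 9667) and 1425 genes, and Normoxia members 2787 UMIs (1574 to 6728) and 1464 genes.

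**Figure D2:**
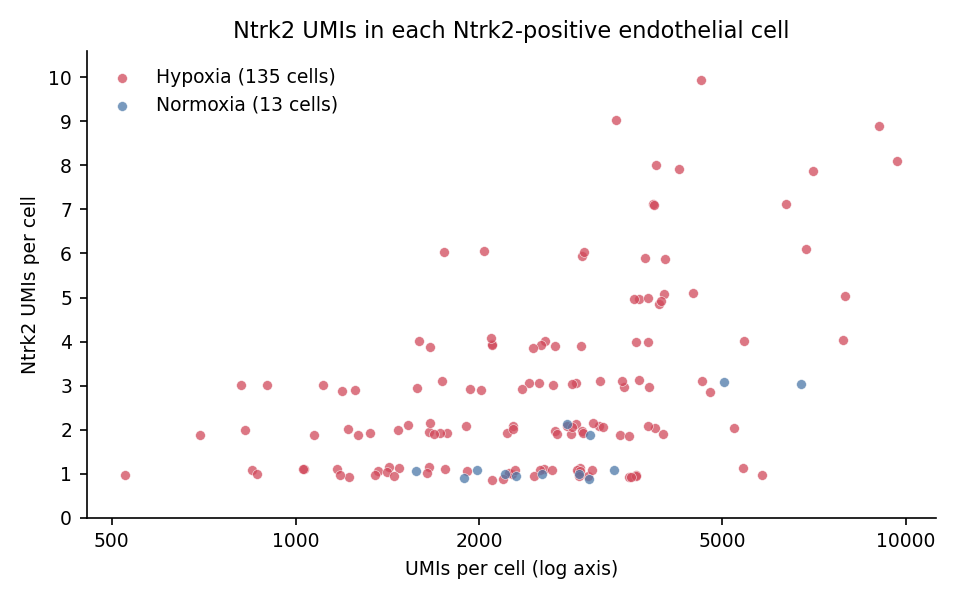
Ntrk2 UMIs per cell (vertical axis, points spread slightly for visibility) against all UMIs of the cell (log axis) for the 135 Hypoxia and 13 Normoxia members. Cells with 4 or more Ntrk2 UMIs appear only in the Hypoxia library, where the maximum is 10.

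The other genes of the TrkB system were read in the same cells. The ligand genes Bdnf, Ntf5 and Ntf3 and the receptor genes Ntrk3 and Ngfr had 0 UMIs in all 4 sets, which allows up to 7.75 CPM in the Hypoxia members. Sort1, a sorting receptor of neurotrophin precursors, had 2 UMIs there and 5 in the Hypoxia negative cells, too few for a ratio. Of 18 adaptor and effector genes, 13 had at least 20 UMIs over the Hypoxia positive and negative cells. Of the 13, 11 lay above 0 in the comparison of positive with negative cells, beside 2933 of all 4610 genes with as many UMIs. The median log2 ratio of CPM of the 13 was 0.47, against 0.17 over all these genes, and it ranged from 0.19 to 0.76 over 21 alternatives. None of the 13 reached a 2-fold difference, beside 7.35% of all genes higher and 3.04% lower. The other 5 had too few UMIs. Between the members of the libraries 10 of the 18 had enough UMIs and 2 were at least 2-fold higher in Hypoxia, beside 16.6% of all genes, with a median of 0.70 that was 0.17 without the fibroblast-marker cells. Mapk3, which encodes ERK1, had 592 against 468 CPM (log2 ratio 0.34, -0.01 to 0.70). Among genes that ERK induces, Ccnd1 had 111 against 227 CPM (-1.03, -1.66 to -0.40), with 16 of its 47 UMIs in 1 negative cell, and the phosphatase gene Dusp6 had 103 against 116 CPM (-0.16, -0.93 to 0.63).

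The comparison within Hypoxia set 135 Ntrk2-positive against 83 Ntrk2-negative cells of 1 library. At a 2-fold difference, 339 of 4610 genes (7.35%) were higher and 140 (3.04%) were lower in the positive cells. The median gene had a log2 ratio of 0.17, which each value below includes. A single Ntrk2-negative barcode held 14567 of the 14596 UMIs of Scgb1a1, a secretory gene of airway club cells that took 70484 CPM of the negative set. Without cells that had at least 2 lymphatic markers or at least 2 markers of a non-endothelial class (112 against 60 cells, a comparison chosen after the data were seen) the median gene stood at 0.01. A value given after "then" comes from this second comparison. The remaining values within Hypoxia and the levels by number of Ntrk2 UMIs keep all 83 negative cells.

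Amd1 stood out. It encodes S-adenosylmethionine decarboxylase, the enzyme that commits S-adenosylmethionine to the synthesis of the polyamines spermidine and spermine. The positive cells had 145 Amd1 UMIs in 60 cells (375 CPM) and the negative cells 19 UMIs in 17 cells (91.8 CPM), a log2 ratio of 2.03 (1.34 to 2.80), and 1.54 in the second comparison. After thinning, 23.4% of positive and 7.04% of negative cells had an Amd1 UMI. Amd2, a copy of Amd1 of nearly the same sequence, followed with 127 and 38.6 CPM (1.71, 0.62 to 3.00; then 1.17), and reads of the pair may have been assigned to either. The other polyamine genes did not go with Amd1: Odc1, ornithine decarboxylase, had 43.9 and 53.1 CPM (-0.27, -1.45 to 0.97; then 0.14), Oaz1, its antizyme, 928 and 951 CPM, and Sat1, which acetylates spermine for export, 274 and 401 CPM (-0.55, -0.98 to -0.12; then -0.51).

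Cdk19, a kinase of the Mediator complex of transcription, had 200 UMIs in 85 positive cells (517 CPM) and 40 UMIs in 23 negative cells (193 CPM), a log2 ratio of 1.42 (0.92 to 1.95) and 0.81 in the second comparison. Cdk19 and Amd1 are neighbours on mouse chromosome 10 (mm10, positions from GENCODE M21): Amd1 lies at chr10:40287458-40302186 on the minus strand and Cdk19 at chr10:40339564-40483818 on the plus strand, with their start sites 37378 bases apart. This was noticed after their values were seen. Of 21 genes of the files within 500000 bases of the pair, 4 had at least 20 UMIs over the 4 sets. The other two of these 4 were Gtf3c6, with 15 UMIs in the positive and 7 in the negative Hypoxia cells, and Cdc40, with 14 and 6, or 38.8 against 33.8 CPM and 36.2 against 29.0 CPM. Ntrk2 lies on another chromosome, at chr13:58806569-59133970 on the plus strand.

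The remaining genes at the top of the list were of varied function. Rgcc, a regulator of the cell cycle, had 103 against 15 UMIs (1.88, 1.09 to 2.77; then 1.30), and Car14, a membrane carbonic anhydrase, 69 against 11 UMIs (1.75, 0.82 to 2.81; then 1.11). Zcchc17, which encodes an RNA-binding zinc finger protein, was higher by 2.10 (0.76 to 3.80; then 1.74) on 40 against 5 UMIs. Chtf8, Ttc3, Etl4, Ankrd13a, Mfhas1, Tsnax and Kif1b lay between 1.68 and 1.91 and rested on 5 to 9 UMIs in the negative cells, so their intervals reached down to between 0.30 and 0.82. In the second comparison these 7 genes lay between 1.19 and 3.56. Normoxia negative cells had 121 CPM of Zcchc17, 126 of Ankrd13a and 70.6 of Kif1b, against 103, 116 and 77.5 in Hypoxia positive cells. Hypoxia negative cells stood low, with 24.1, 33.8 and 24.1 CPM. Rgcc (65.5 CPM) and Car14 (40.3 CPM) were lower in Normoxia negative than in Hypoxia positive cells (266 and 178 CPM). So were Chtf8, Ttc3, Etl4, Mfhas1 and Tsnax, with 45.4 to 85.7 CPM in Normoxia negative cells.

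Genes of capillary identity were mixed. Kit, the receptor of stem cell factor and a general capillary gene, had 89 UMIs in 64 positive cells (230 CPM) and 16 UMIs in 15 negative cells (77.3 CPM), a log2 ratio of 1.57 (0.80 to 2.44), which was 0.74 in the second comparison and 0.41 after thinning. Sema3c had 1892 against 879 CPM (1.11, 0.87 to 1.35; then 0.49), and Sox17 452 against 237 CPM (0.93, 0.47 to 1.42; then 0.58). Cxcl12, a chemokine, had 1398 against 831 CPM (0.75, 0.50 to 1.01; then 0.38). Plvap, which forms the diaphragms of fenestrae and caveolae and is also listed as a general capillary gene, went the other way, with 243 CPM in positive and 633 CPM in negative cells (-1.38, -1.78 to -0.99; then -1.47). Over the 10 general capillary genes with enough UMIs, 2 were at least 2-fold higher and 1 at least 2-fold lower, beside 7.35% and 3.04% of all genes. Their median was 0.45. This median was -0.16 in the second comparison, so its direction depended on which cells stood in the negative set, whereas Amd1, Cdk19, Kit, Sema3c, Sox17 and Plvap kept their direction in all 21 alternatives.

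**Figure D3:**
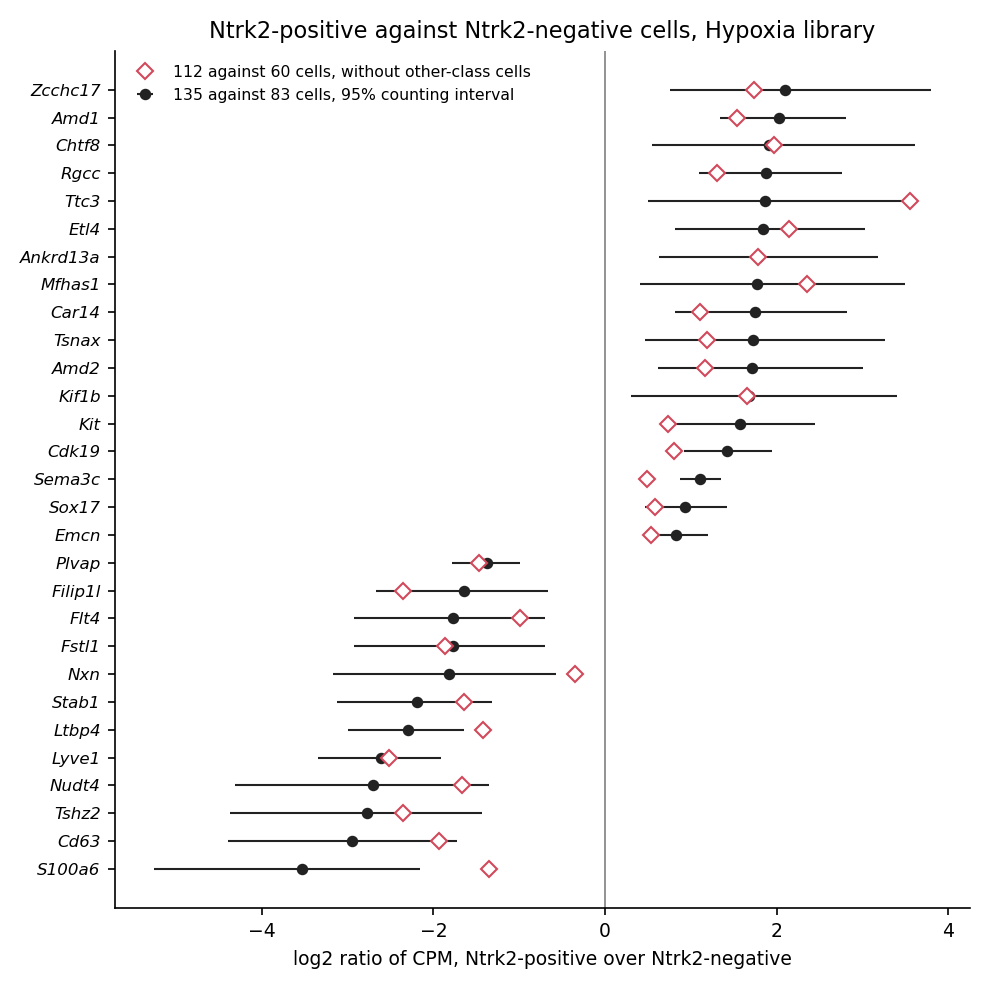
Log2 ratio of CPM of Ntrk2-positive over Ntrk2-negative cells in the Hypoxia library for 29 genes, with 95% counting intervals (black), and the same ratio without cells with lymphatic or non-endothelial markers (open diamonds, 112 against 60 cells). Ccl21a (-8.50) lies beyond the axis and is not drawn. Amd1 (2.03 and 1.54) and Plvap (-1.38 and -1.47) keep their distance from 0 in both.

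Of the 12 named genes with the lowest ratios, Ccl21a, Lyve1 and Flt4 were on the lymphatic list. Ccl21a, the chemokine of lymphatic endothelium, had 6 UMIs in the positive cells and 1160 in 10 negative cells (-8.50, -9.95 to -7.37), Lyve1, a hyaluronan receptor, 23 against 75 (-2.61), Flt4, the VEGF-C receptor, 12 against 22 (-1.78) and Mmrn1, a lymphatic matrix protein, 0 against 47. With 3 UMIs as the floor of the positive set, the log2 ratio of Mmrn1 was at most -4.87. All 4 lymphatic genes with enough UMIs were at least 2-fold lower in the positive cells, beside 3.04% of all genes. At least 2 of the 8 lymphatic markers were detected in 10 of the 83 negative cells and in 1 of the 135 positive cells. Without such cells Ccl21a turned to 0.45, so its difference rested on them, whereas in the second comparison Lyve1 stood at -2.52 and Flt4 at -0.99. S100a6, Cd63, Tshz2, Nudt4, Ltbp4, Stab1, Nxn, Fstl1 and Filip1l had log2 ratios of -3.53 to -1.64. In the second comparison these 9 genes stood between -2.35 and -0.35, with Nxn nearest to 0. Stab1 is a scavenger receptor of lymphatic and sinusoidal endothelium and Ltbp4 binds latent TGF-beta. Among the 42 Hypoxia endothelial cells with at least 2 aerocyte genes, Stab1 had a UMI in 20, Flt4 in 14 and Lyve1 in 5. In the 84 Normoxia Ntrk2-negative cells Lyve1 had a UMI in 29.

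Markers of larger vessels were mixed. Mgp, a matrix protein of arteries, had 220 CPM in positive and 1680.5 CPM in negative cells (-2.94; then -2.57), where 1 cell held 169 of 348 UMIs. Over 21 alternatives the ratio of Mgp ranged from -4.31 to -0.0033, so its size depended on the settings. Fbln5, a protein of elastic fibres, had 18.1 and 169 CPM (-3.22) and Vcam1, an adhesion molecule of veins, 10.3 and 174 CPM (-4.07), but the second comparison left 4 against 11 UMIs of Fbln5 and 3 against 4 of Vcam1. Fabp4, a fatty acid carrier, had 1 and 115 UMIs, the latter in 5 cells, and 1 and 20 in the second comparison. Of 9 arterial genes 4 and of 5 venous genes 3 were at least 2-fold lower, beside 3.04% of all genes, with medians of -0.21 and -1.05. The venous median was -0.72 in the second comparison. The arterial median was 0.05 there and 0.43 after thinning, and it kept its sign in 16 of 21 alternatives. Of the 9 arterial genes 4 lay above 0, beside 2933 of all 4610 genes. Among arterial genes Sox17 and Gja4, a connexin (414 against 285 CPM, 0.54, 0.10 to 0.99; then 0.40), went the other way.

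The level of these genes was then compared among Hypoxia cells with 0, 1, 2 and 3 or more Ntrk2 UMIs (83, 40, 34 and 61 cells), whose median depth was 2122, 2213, 2467.5 and 3345 UMIs. Amd1 had 91.8, 331, 292 and 425 CPM. The step lay between 0 and 1 Ntrk2 UMI, and the intervals of the cells with 1 (223 to 472), 2 (187 to 434) and 3 or more (342 to 522) overlapped. Cdk19 had 193, 474, 522 and 533 CPM and Kit 77.3, 243, 231 and 224 CPM, with the same step.

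Sox17 had 237, 353, 413 and 510 CPM, an ordered series in which neighbouring intervals overlapped. Sema3c had 879, 1930, 1628 and 1977 CPM. Plvap had 633, 298, 328 and 187 CPM and was lowest where Ntrk2 was highest. In Amd1, Cdk19, Kit, Sema3c and Plvap the cells with 1 Ntrk2 UMI thus stood closer to the cells with 2 than to the cells with 0.

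**Figure D4:**
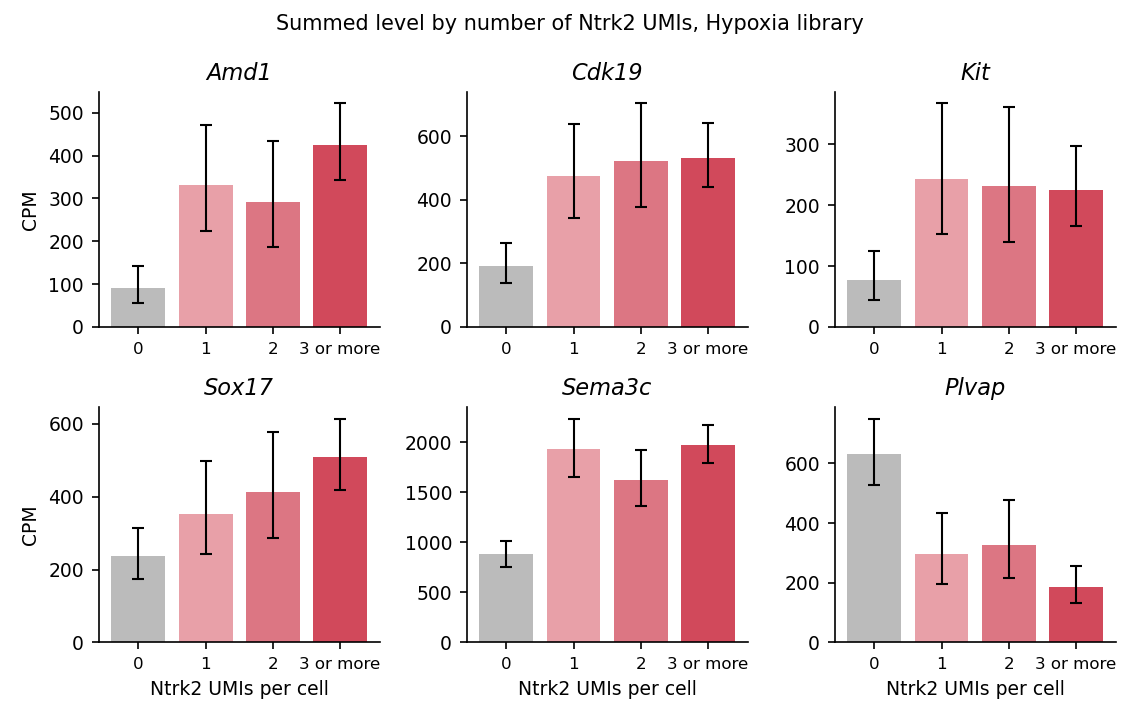
Summed CPM (bars) with exact Poisson 95% intervals (lines) of 6 genes in Hypoxia cells with 0, 1, 2 and 3 or more Ntrk2 UMIs (83, 40, 34 and 61 cells). Amd1, Cdk19, Kit and Sema3c step up between 0 and 1 Ntrk2 UMI, and Plvap falls from 633 to 187 CPM.

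The stretches just upstream of the RefSeq start sites of Ntrk2, Amd1 and Sema3c are shown because these genes were high in the same cells. They are the 250 bases before each RefSeq start on GRCm38.p6, written 5′ to 3′ on the gene's strand, for Ntrk2 chr13:58806319-58806568 (plus), Amd1 chr10:40302189-40302438 (minus) and Sema3c chr5:17574566-17574815 (plus). GENCODE M21 starts Sema3c earlier, at chr5:17574281, so the Sema3c stretch lies inside the gene by that annotation. Capitals mark ACGTG and GCGTG, the core letters that hypoxia-inducible factors bind, read on either strand.
Ntrk2: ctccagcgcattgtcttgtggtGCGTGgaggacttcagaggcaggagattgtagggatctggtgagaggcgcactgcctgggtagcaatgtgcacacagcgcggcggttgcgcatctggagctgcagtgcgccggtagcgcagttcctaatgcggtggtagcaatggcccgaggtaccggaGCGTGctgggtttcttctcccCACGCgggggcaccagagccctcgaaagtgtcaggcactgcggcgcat
Amd1: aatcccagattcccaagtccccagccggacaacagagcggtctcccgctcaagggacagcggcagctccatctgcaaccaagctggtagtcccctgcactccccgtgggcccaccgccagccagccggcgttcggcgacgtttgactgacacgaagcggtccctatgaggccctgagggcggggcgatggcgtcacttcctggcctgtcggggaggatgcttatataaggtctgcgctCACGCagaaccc
Sema3c: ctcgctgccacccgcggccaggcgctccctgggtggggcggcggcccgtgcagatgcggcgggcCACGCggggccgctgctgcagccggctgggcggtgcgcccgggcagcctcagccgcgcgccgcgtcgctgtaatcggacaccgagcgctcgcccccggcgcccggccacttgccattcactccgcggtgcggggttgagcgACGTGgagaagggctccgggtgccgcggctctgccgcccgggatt
The Ntrk2 stretch held 3 such matches, Amd1 1 and Sema3c 2, and 38.6% of 32851 stretches of this length held at least 1. The letters ACAAT, a core that Sox proteins bind, matched 2 times in the Ntrk2 stretch, 0 times in the other stretches and at least 1 time in 27.7% of all stretches. A match describes letters and is not a binding site.

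Genes of hypoxia signalling were then read in the same cells. Epas1, which encodes HIF2α, had 1670 CPM in Hypoxia members, 1246 CPM in Hypoxia Ntrk2-negative cells and 1577 CPM in Normoxia members, so the Hypoxia and Normoxia members were close (0.08, -0.29 to 0.48, and -0.43 without the fibroblast-marker cells). Hif1a was low, with 13 UMIs in the Hypoxia and 0 in the Normoxia members. Of 37 HIF target genes, 21 had enough UMIs for the comparison of positive with negative cells. Their median was 0.21 beside 0.17 for all genes; Pfkl (1.10, 0.34 to 1.93; then 0.92), Pfkp (1.10, -0.53 to 3.14) and Pgk1 (1.04, 0.10 to 2.09; then 1.05), all of glycolysis, were at least 2-fold higher and Ddit4 (-1.19; then -0.65), a stress-induced inhibitor of mTOR, was at least 2-fold lower. These 3 of 21 and 1 of 21 stand beside 7.35% and 3.04% of all genes. Pfkp turned to -0.013 without a limit on aerocyte genes.

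Receptors of BMP signalling, which carry most of the known mutations of heritable pulmonary arterial hypertension, were followed across the 4 sets. Bmpr2 had 610 CPM in Hypoxia positive, 377 in Hypoxia negative, 661 in Normoxia positive and 675 in Normoxia negative cells, so the Hypoxia negative cells stood lowest. Acvrl1, a partner of Bmpr2, had 1223, 773, 1297 and 1432 CPM in the same order. The log2 ratios within Hypoxia were 0.70 (0.32 to 1.08; then 0.32) and 0.66 (0.40 to 0.93; then 0.20). Eng, their co-receptor, did not follow, with 501 and 502 CPM in the Hypoxia sets. Over 15 BMP and TGF-beta genes none reached a 2-fold difference within Hypoxia, beside 7.35% of all genes higher and 3.04% lower. Their median was 0.10, beside 0.17 for all genes. Bmp6, a ligand of the pathway, had 217, 116, 560 and 469 CPM and was lower in Hypoxia in both sets. Between the members its log2 ratio was -1.37, and -1.85 without the fibroblast-marker cells. Over 18 alternatives this ratio ranged from -1.91 to -0.0087, so its size depended on the settings.

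Other lists stood near the median of all genes within Hypoxia, where 7.35% of all genes were at least 2-fold higher and 3.04% lower. None of 9 flow-responsive genes reached a 2-fold difference (median 0.27), and among them Thbd, which encodes the anticoagulant thrombomodulin, had 1621 against 893 CPM (0.86, 0.62 to 1.10; then 0.19). None of 8 Notch genes (median -0.19) and none of 8 junction genes (0.39) reached it. Of 8 Wnt and Sox17 genes 1 did, Tspan12, a co-receptor of Norrin signalling, with 134 against 58.0 CPM (1.21, 0.29 to 2.26; then 0.90). Of 13 immediate early genes, which mark stress during tissue dissociation, 1 was at least 2-fold higher, Hspa1a, a heat shock protein (1.34, 0.62 to 2.14; then 0.73), and the median was 0.05. Of 6 cell cycle genes 1 was at least 2-fold lower, Ccnd1, and Mki67, the proliferation marker, had 0 UMIs in all 135 members. Among genes shared by all endothelium, Emcn, a surface sialomucin, had 685 against 386 CPM (0.83, 0.46 to 1.21; then 0.53) and Cav1, the coat protein of caveolae, 2088 against 1265 CPM (0.72, 0.52 to 0.93; then 0.25).

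The comparison of Hypoxia with Normoxia members set 135 cells against 13. Of 3668 genes with at least 20 UMIs over both, 610 (16.6%) were at least 2-fold higher and 254 (6.92%) at least 2-fold lower in Hypoxia, with a median log2 ratio of 0.07. Without the cells with at least 2 fibroblast markers 370 were higher and 396 lower and the median was -0.14, so these counts depended on a pair of Normoxia cells.

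The clearest group was MHC class II, the genes by which cells present extracellular antigen to helper T cells. Cd74, the invariant chain, had 2896 UMIs in 130 of 135 Hypoxia members (7485 CPM) and 34 UMIs in 4 of 13 Normoxia members (865 CPM), a log2 ratio of 3.11 (2.63 to 3.65) and 2.60 without the fibroblast-marker cells. H2-Aa had 1631 and 381 CPM (2.10, 1.36 to 2.94), H2-Ab1 1975 and 509 CPM (1.96, 1.32 to 2.68) and H2-Eb1 1349 and 229 CPM (2.56, 1.62 to 3.70), and without the fibroblast-marker cells these ratios were 1.58, 1.45 and 2.06. All 7 genes of the list, with H2-DMa, H2-DMb1 and Ciita, were at least 2-fold higher, beside 16.6% of all genes. Their median was 2.10 (1.58 without the fibroblast-marker cells).

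The difference was also present in Ntrk2-negative cells. In that set, where 142 of 3512 genes (4.04%) were at least 2-fold higher and 286 (8.14%) at least 2-fold lower in Hypoxia, all 6 class II genes with enough UMIs were at least 2-fold higher, with a median of 1.83. Cd74 stood at 4317 and 595 CPM there (2.86, 2.58 to 3.15). Endothelial cells with at least 2 aerocyte genes had 3016 CPM in Hypoxia and 60.8 CPM in Normoxia. T and NK cells had 1353 and 1075 CPM of Cd74 with a UMI in 21.6% and 14.3% of cells. In Hypoxia they also had more H2-Aa (378 and 169 CPM), H2-Ab1 (410 and 116 CPM) and H2-Eb1 (370 and 221 CPM). B cells had 18282 and 12303 CPM of Cd74 and 4440 and 1897 CPM of H2-Ab1, with H2-DMb1 near equal (137 and 139 CPM). The class II difference was thus not limited to endothelial cells. After thinning, Cd74 had a UMI in 94.5% of Hypoxia and 23.1% of Normoxia members.

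Within Hypoxia the positive cells had more class II transcript than the negative cells, with all 7 genes above 0, a median of 0.79 and H2-Eb1 at 1.02 (0.74 to 1.30; then 0.43). Over all 4610 genes 2933 lay above 0. In the second comparison the class II median was 0.21 and Cd74 0.21, beside an all-gene median of 0.01. Class I genes were nearer to each other: B2m, their light chain, had 5363 CPM in Hypoxia positive, 3907 in Hypoxia negative and 3179 in Normoxia positive cells, and the median of 10 class I genes between the members of the libraries was 0.36 (-0.10 without the fibroblast-marker cells).

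Sparcl1, a secreted matrix protein of the SPARC family, had the highest ratio among the named genes. It had 360 UMIs in 105 Hypoxia members (930 CPM) and 3 UMIs in 2 Normoxia members (76.3 CPM), a log2 ratio of 3.61 (2.05 to 5.89) and 4.71, on 1 Normoxia UMI, without the fibroblast-marker cells. In the negative cells it stood at 715 and 131 CPM (2.45, 1.84 to 3.11). Ahr, the aryl hydrocarbon receptor, Slfn5, Scn3b and H2-DMb1 followed with 3.40, 3.24, 3.01 and 2.93, each on 1 or 2 UMIs in the Normoxia members. Without the fibroblast-marker cells they stood at 2.86, 2.73, 2.50 and 2.42, but after thinning Ahr turned to -0.077 and Slfn5 fell to 0.24. Over 18 alternatives Scn3b reached down to 1.21 and H2-DMb1 to 0.51, and the 2 Normoxia UMIs of H2-DMb1 came from 1 cell. Col4a1 and Col4a2, the main chains of basement membrane collagen, had 700 against 203 CPM (1.78, 0.78 to 3.01) and 509 against 178 CPM (1.52, 0.45 to 2.85), with 1.29 and 1.23 without the fibroblast-marker cells.

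The genes lower in the Hypoxia members were led by Abi3bp, Ecm1, Filip1l, Cyp4b1, Fcgrt and Pdlim2 (log2 ratios -3.08 to -2.42). Without the fibroblast-marker cells Abi3bp stood at -2.97, Filip1l at -2.46 and Pdlim2 at -1.32. Cyp4b1, a cytochrome P450 also found in aerocytes, had 101 CPM in the Hypoxia and 585 CPM in the Normoxia members and was -3.02 without the fibroblast-marker cells. Fcgrt, the neonatal Fc receptor, moved from -2.46 to -0.14 without them and Ecm1 from -2.71 to -1.08, so these ratios rested on that pair of cells. Sparc moved from -1.06 to 0.32 and changed direction. Plvap had 243 CPM in the Hypoxia and 788 CPM in the Normoxia members (-1.70, -2.30 to -1.06) and -2.24 without the fibroblast-marker cells, but it turned to 0.41 when positive cells needed at least 2 Ntrk2 UMIs. In the negative cells it had 633 and 1961 CPM (-1.63, -1.93 to -1.34).

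HIF target genes were read in this comparison too. Of 17 with enough UMIs, 6 were at least 2-fold higher and 1 at least 2-fold lower in the Hypoxia members, beside 16.6% and 6.92% of all genes, with a median of 0.43, which was 0.16 without the fibroblast-marker cells. Ldha, lactate dehydrogenase, had 504 against 127 CPM (1.99, 0.74 to 3.63; then 1.48 without the fibroblast-marker cells) and Pfkl, phosphofructokinase, 72 against 1 UMI (2.87, 0.35 to 8.19; 2.35 without them and -0.13 after thinning). The intervals of the other 4, Bnip3, Ndrg1, Hk1 and Tpi1, held 0. Vegfa had 34 and 8 UMIs (-1.21, -2.35 to 0.11), or -1.37 without the fibroblast-marker cells.

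Levels of Amd1 and Cdk19 differed between the libraries as well. Amd1 had 375 CPM in the Hypoxia and 102 CPM in the Normoxia members, the latter from 4 UMIs in 3 cells (1.88, 0.49 to 3.78; 1.77 without the fibroblast-marker cells). In the negative cells it had 91.8 and 10.1 CPM (3.19, 1.13 to 6.33, on 19 and 2 UMIs). Endothelial cells with aerocyte genes had 222 and 15.2 CPM, whereas T and NK cells had 23.9 and 31.6 CPM. Cdk19 had 517 CPM in the Hypoxia members, and its 5 UMIs in the Normoxia members all came from 1 cell (127 CPM; log2 ratio 2.02, 0.78 to 3.66, and 1.5 without the fibroblast-marker cells). In the negative cells Cdk19 had 193 and 45.4 CPM (2.09, 1.02 to 3.32), and in endothelial cells with aerocyte genes 521 CPM in Hypoxia and 0 UMIs in Normoxia, which allows up to 22.8 CPM. Both genes were thus higher in Hypoxia in each endothelial set. T and NK cells had less Cdk19 but moved the same way, with 31.8 CPM (8 UMIs) in Hypoxia and 10.5 CPM (1 UMI) in Normoxia. Cells outside the endothelial gate had 29.4 and 18.3 CPM of Cdk19.

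Sema3c and Sox17, the other markers of the label, differed little between the libraries in the members. Sema3c had 1892 CPM in Hypoxia and 1780.3 CPM in Normoxia (0.09, -0.27 to 0.46) and Sox17 452 and 305 CPM (0.57, -0.27 to 1.55). Without the fibroblast-marker cells these ratios were -0.40 and 0.068. In the negative cells Sema3c was lower in Hypoxia (879 and 1467 CPM, -0.74, -1.01 to -0.47).

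**Figure D5:**
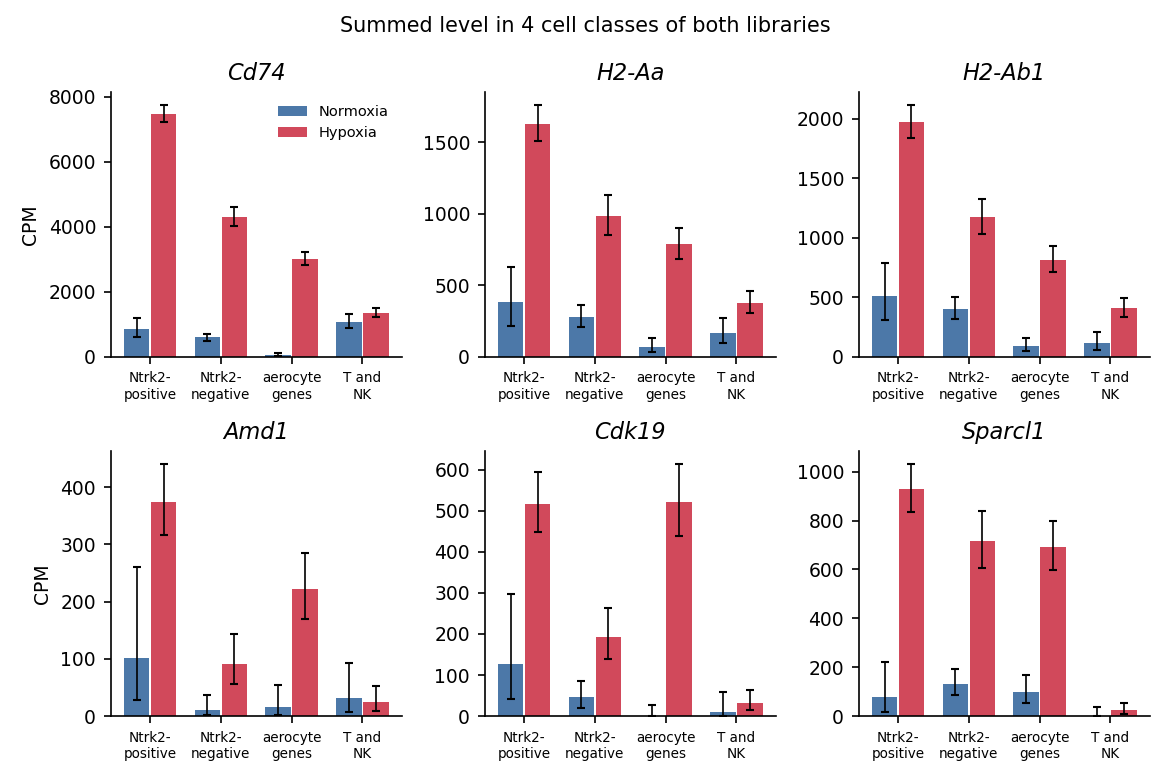
Summed CPM (bars) with exact Poisson 95% intervals (lines) of 6 genes in Ntrk2-positive cells, Ntrk2-negative cells, endothelial cells with at least 2 aerocyte genes, and T and NK cells of the Normoxia and Hypoxia libraries. Cd74, Amd1, Cdk19 and Sparcl1 are higher in Hypoxia in the 3 endothelial sets. T and NK cells lie at or under 31.8 CPM for Amd1 and Cdk19, with Cdk19 also higher there in Hypoxia (31.8 and 10.5 CPM). H2-Aa (378 and 169 CPM) and H2-Ab1 (410 and 116 CPM) are higher in Hypoxia in T and NK cells too.

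In Normoxia the 13 positive cells were set against 84 negative cells. Of 2282 genes with enough UMIs, 130 (5.7%) were at least 2-fold higher and 311 (13.6%) at least 2-fold lower in the positive cells, with a median of -0.15. All 4 fibroblast markers with enough UMIs were at least 2-fold higher in the positive cells (median 6.94), from the pair of cells described above. Without cells with at least 2 fibroblast markers (11 against 82 cells, chosen after the data were seen) 146 genes were higher, 255 were lower and the median was 0.0040. Amd1 had 102 against 10.1 CPM (3.33, 0.53 to 6.80) on 4 and 2 UMIs and Cdk19 127 against 45.4 CPM (1.49, -0.44 to 3.22) on 5 and 9, both below the minimum of 20 UMIs used for ratios. Plvap was lower (788 against 1961 CPM, -1.31, -1.89 to -0.79, and -0.79 without the fibroblast-marker cells). Sema3c (0.28, -0.12 to 0.66), Sox17 (-0.01, -1.04 to 0.90) and Kit (-0.83, -2.79 to 0.65) had intervals that held 0, and stood at 0.75, 0.47 and -0.36 without those cells. Ecm1, Fcgrt, Pdlim2, Timp2, Zc3h7a and Prkcsh led the higher genes (3.70 to 1.75), with 33.3 to 50% of their UMIs in 1 cell. Without those cells Fcgrt stood at 0.11, Timp2 at 0.44, Pdlim2 at 0.90 and the other 3 at 1.35 to 2.23. Lyve1, Slfn5, Isg15, Il6st, Efna1 and Smco4 led the lower ones (-3.97 to -2.71, and -3.49 to -2.23 without those cells), each with 1 UMI in the positive cells.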

How the data were processed

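Single-cell RNA-seq counts of 2 mouse lung libraries (1 per group) were analysed. The authors deposited counts of UMIs that were not normalized, 1 matrix per library. The matrix headers name Cell Ranger 3.1.0, and the submitters' processing notes name mm10 and Seurat. The libraries held 1323874 (Normoxia) and 1989423 UMIs (Hypoxia), and 2 barcodes occurred in both, 0 of them members.

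The members and gene lists were chosen with earlier results of these data known. CPM is the sum of a gene's UMIs in a set of cells over the sum of all UMIs in that set. Ratios, for genes with at least 20 UMIs over both sets, carry exact conditional binomial intervals, sums exact Poisson and shares exact Clopper-Pearson intervals (95%); 0 was taken to allow 3 counts. The 18 rule genes were left out of counts of genes. Named genes had a mean of at least 50 CPM, a UMI in at least 10% of cells of 1 set, an interval without 0 and at most 25% of UMIs in 1 cell (50% in sets under 20 cells), without mitochondrial, ribosomal, Gm and Rik genes: the 12 highest and 12 lowest for the main comparison, 6 and 6 for the others, with the label's markers and members of the lists. Genes on 2 feature rows with 1 symbol (Ccl21a, Aldoa) were summed. Python 3.11.15, scipy 1.17.1 and scanpy 1.11.5 were used. The ratios and their intervals were tested on simulated Poisson sums without variation between cells. That test cannot show whether the intervals hold where single cells carry much of a count. Alternatives varied the gate, the UMI minimum, the scaling and the depth by thinning. Doublets were kept, since Scrublet marked only 1 Normoxia and 2 Hypoxia barcodes, 0 among gated cells, and so gave no usable call. Promoters are RefSeq sequences of GRCm38.p6, matched by symbol for 3 genes. Some genes are not reported here.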

Additional observations from a re-analysis of the deposited data

Results flagged for a closer look

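Endothelial cells that were left out because they had at least 2 aerocyte genes also carried Ntrk2 in the Hypoxia library. An Ntrk2 UMI was found in 24 of 42 of them (57.1%, 41.0 to 72.3%; median 4555.5 UMIs), above the 1 of 30 in Normoxia (3.33%, 0.0844 to 17.2%; median 2969.5 UMIs) and above the 2.17% of T, NK and B cells. This signal lies outside the compared sets, which is why it is listed here. After thinning to 1000 UMIs the counts were 15 of 42 (35.7%) and 1 of 29 (3.45%).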

How the results depend on the processing

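The Ntrk2-positive share stayed between 43.6 and 67.0% in Hypoxia and between 4.12 and 15.2% in Normoxia. It moved beyond its interval with at least 2 Ntrk2 UMIs (43.6 and 4.12%) and with cells thinned to 1000 UMIs before the rule (48.3 and 7.14%). Counts of genes past a 2-fold difference depended on the settings and should be read as descriptions. Between positive and negative Hypoxia cells the count of higher genes (339) was 741 and 98 with a minimum of 10 and 50 UMIs per gene, 111 after thinning to 1000 UMIs, 138 with totals between the quartiles of the positive cells, 167 with 0 aerocyte genes, 201 after scaling by the median ratio, 198 without cells with 2 non-endothelial markers and 207 without these and lymphatic cells. The count of lower genes (140) was 395 and 30, 45 after thinning, 78 between the quartiles, 249 without an aerocyte limit, 212 by the mean CPM per cell and 89 without lymphatic and non-endothelial cells. Ccl21a turned to 0.45 without lymphatic cells and to 0.97 without these and non-endothelial cells, and Pfkp to -0.013 without an aerocyte limit and to -0.42 between the quartiles. Between Hypoxia and Normoxia members the count of higher genes (610) was 353 with at least 6 endothelial genes, 383 with 0 aerocyte genes, 238 without non-endothelial cells, 212 after thinning, 199 with a minimum of 50 UMIs and 370 without fibroblast-marker cells. The count of lower genes (254) was 438, 494 with at least 2 Ntrk2 UMIs, 382 without an aerocyte limit, 483 without non-endothelial cells, 105 after thinning, 1103 and 56 with a minimum of 10 and 50 UMIs and 396 without fibroblast-marker cells. Sparc turned to 0.32 with at least 6 endothelial genes and without fibroblast-marker cells, to 0.081 without non-endothelial cells and to 0.073 without the deepest cell of each set, Plvap to 0.41 with at least 2 Ntrk2 UMIs, Ahr to -0.077 and Pfkl to -0.13 after thinning, and the median of aerocyte genes beyond the rule from -1.17 to 0.51 with 0 aerocyte genes. The causes were not tested. The comparisons without lymphatic, fibroblast-marker or non-endothelial cells together, and with at least 3 general capillary genes, were chosen after the data were seen. No paired analysis was possible because each group had 1 library. Depth limits the Normoxia members most, where 1 UMI among 39320 is 25.4 CPM.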
